A study of Mus musculus with 12 samples.

Results

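A set of 10 genes that myeloid cells switch on during inflammatory activation were followed across all arrays of a mouse study of the transcription factors Stat5a and Stat5b. They were the cytokines Tnf and Il1b, the surface proteins Clec4d, Clec4e, Icam1 and Cd83, the signalling proteins Traf1, Birc3 and Tnfaip3, and the enzyme Acod1. A probe set was taken where the array annotation gave it exactly 1 symbol and that symbol was one of these names, which gave 14 probe sets for the 10 genes, of 18194 genes with a probe set. The genes had been chosen with their signals on these arrays known, above all their difference between arrays with and without CMP, so that difference is described here and carries no test. Knockout against control, and the comparison of the CMP difference between the genotypes, were fitted with tests over all genes, but the signals of both genotypes were known too when the genes were chosen, so these tests are not independent of the choice.

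The study measured blood cells of mice lacking Stat5a and Stat5b and of control mice that have both genes, each with and without CMP. The 4 groups were Stat5 knockout with CMP, Stat5 knockout without CMP, control with CMP and control without CMP, with 3 arrays each, 12 in all. The labels do not spell out CMP, and they do not settle whether it is something given to the cells or a name for the cells. The treatment text speaks of cells treated with CMP or with none, while some titles hold the letters CMP on plus and minus arrays alike. Here "with CMP" and "without CMP" mean only the plus and minus arrays, and if CMP names the cells the difference between them has another meaning than a treatment. The labels name no age, strain, sex, cell type, dose, duration or Cre line for any group. Nothing in them says that the 3 arrays of a group came from separate mice, so p-values measure the spread between these arrays, which may be technical.

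In macrophages, monocytes and neutrophils, microbial products and tissue damage are sensed by Toll-like receptors and by C-type lectins such as Clec4e and Clec4d, and both routes lead to the transcription factor NF-kB. NF-kB then switches on cytokine genes such as Tnf and Il1b, adhesion and co-stimulatory proteins such as Icam1 and Cd83, and its own regulators, among them Tnfaip3, which shuts the signal off. Tnf protein in turn acts through receptors whose signalling complexes hold Traf1 and Birc3, and Acod1 makes the metabolite itaconate from an intermediate of the tricarboxylic acid cycle.

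The arrays carry 3 forms of title, called naming sets A, B and C here, and each form names 1 array of every group. Arrays of 1 naming set deviated together: their correlations after removal of the group means lay between 0.41 and 0.77 for the 18 pairs within a set, against -0.64 to 0.28 for the 36 pairs between sets and groups. Set B stood apart in its beta-actin control signals. Its log2 ratio of the 3′ to the 5′ beta-actin control probe set was 4.30 to 5.78, against 0.25 to 2.14 on the other 8 arrays. The same ratio was higher with CMP in 6 of 6 pairs of arrays, by 0.24 to 1.63 with a median of 0.90, and higher in knockouts than in controls in 2 of 6 pairs. Stat5a gave signals of 28.9 to 90.1 on the knockout arrays, against 659.7 to 1436 on the control arrays. Stat5b gave 7.28 to 82.8 on the knockout arrays and 1036 to 2177 on the control arrays. For the knockout array without CMP of set B, the title names a knockout and the treatment text a control. It was grouped by its title, and its Stat5a and Stat5b signals were 50.1 and 32.3.

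Myeloid identity was checked with marker lists. Csf1r, the receptor of macrophage colony stimulating factor, gave 9142 to 25919 on knockout arrays with CMP, 7067 to 13628 on knockout arrays without CMP, 5177 to 9377 on control arrays with CMP and 3997 to 7505 on control arrays without CMP. Mpo, a granule enzyme of granulocyte and monocyte precursors, gave 15537 to 56983 on the 12 arrays. Other markers of granulocyte and monocyte progenitors were Cd34 (927 to 8919), Kit (953 to 7035), Myb (9684 to 25293) and Elane (150 to 1808). C1qa, a complement gene of tissue macrophages, stayed at or under 7.69 on every array. In the same list C1qb reached 113 and Adgre1 gave 124 to 478. The T cell genes Cd3e and Cd3g reached 94.5 and 18.1 at most, and Cd8a reached 162. But Nkg7, a granule gene of natural killer and cytotoxic T cells in the same list, gave 742 to 5535. Of the B cell genes, Cd79a reached 111 and Cd79b 1083. The summed signal of 11 macrophage markers was 19795 to 33617 in knockouts with CMP, 15439 to 25881 in knockouts without CMP, 9110 to 18746 in controls with CMP and 8865 to 20216 in controls without CMP. It was higher with CMP in 4 of 6 pairs, and the summed signal of 8 markers of granulocyte and monocyte progenitors was higher with CMP in 0 of 6.

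Markers of other lineages moved with CMP as well. The summed signals of red cell precursor, mast cell and basophil, T and natural killer cell, and B cell markers were each higher with CMP in 0 of 6 pairs. The red cell precursor sum (9 genes) was 3707 to 12805 in knockouts with CMP, 13698 to 32842 in knockouts without CMP, 8228 to 18980.0 in controls with CMP and 15167 to 56673 in controls without CMP. Of its 7 tested genes 5 fell in knockouts and 4 in controls by limma, against 9.72% and 11.6% of all genes. Among them was Car1, a carbonic anhydrase of red cell precursors (-3.74 ± 0.58 in knockouts and -3.5 ± 0.58 in controls). The T and natural killer cell sum (6 genes) was 963 to 2324 in knockouts with CMP, 4249 to 5689 in knockouts without CMP, 1137 to 2241 in controls with CMP and 4776 to 5689 in controls without CMP, and Nkg7 fell in knockouts (-1.96 ± 0.24) and controls (-2.02 ± 0.24). Nkg7 made up most of the T and natural killer cell sum. Cd8a, the other tested gene of that list, stood at 0.52 ± 0.39 in knockouts and -0.30 ± 0.39 in controls. The B cell gene Ms4a1, under the level needed for testing, went against its list's sum. In knockouts it gave 66.0, 72.4 and 63.9 with CMP (sets A, B and C), against 29.5, 52.7 and 37.9 without. In controls it gave 63.2, 158 and 85.2 with CMP, against 17.7, 81.7 and 69.0 without. Car1 and Nkg7 were picked after their values were seen. Between the genotypes, the red cell precursor and megakaryocyte sums were lower in the knockout in 6 of 6 pairs. The part of these shifts in the values of the 10 genes, with CMP or between genotypes, was not tested. In RNA of mixed cells, a change in the number of cells of a type and a change in RNA per cell cannot be told apart.

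Promoter sequences were available from RefSeq (GRCm38.p6) for 9 of the 10 genes, 10 promoters in all since Tnfaip3 has 2, each running from 250 bases before to 50 bases after the transcription start. They were searched on both strands for the NF-kB site known as the kappa B consensus, for its symmetric form GGAAATTCC, for the STAT motif TTCNNNGAA to which Stat5 proteins bind, and for the AP-1 motif TGANTCA. The form GGAAATTCC was added after the sequences had been read. The 3 promoters below are shown because they hold all the matches found. They are written 5′ to 3′ on the strand of the gene, with motif matches in capitals.
Icam1, chr9:21015690-21015989, plus strand: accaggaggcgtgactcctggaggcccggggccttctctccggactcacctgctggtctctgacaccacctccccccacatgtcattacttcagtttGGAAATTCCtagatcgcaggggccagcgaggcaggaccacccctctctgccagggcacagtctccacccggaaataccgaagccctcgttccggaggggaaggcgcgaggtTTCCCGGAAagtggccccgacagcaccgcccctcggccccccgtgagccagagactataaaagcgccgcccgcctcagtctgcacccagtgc
Tnfaip3, chr10:19015361-19015660, minus strand: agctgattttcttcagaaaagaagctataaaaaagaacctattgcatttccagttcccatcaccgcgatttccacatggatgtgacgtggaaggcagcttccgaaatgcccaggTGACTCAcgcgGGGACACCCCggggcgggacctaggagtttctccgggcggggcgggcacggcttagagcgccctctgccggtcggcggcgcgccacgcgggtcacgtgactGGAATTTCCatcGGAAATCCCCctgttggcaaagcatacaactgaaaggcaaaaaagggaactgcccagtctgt
Acod1, chr14:103046762-103047061, plus strand: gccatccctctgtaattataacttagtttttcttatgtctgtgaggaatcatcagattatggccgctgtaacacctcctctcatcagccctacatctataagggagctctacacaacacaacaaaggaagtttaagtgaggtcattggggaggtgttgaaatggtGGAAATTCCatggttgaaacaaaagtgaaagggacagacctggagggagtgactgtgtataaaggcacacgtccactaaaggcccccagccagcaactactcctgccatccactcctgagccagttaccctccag

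The Icam1 promoter held GGAAATTCC at 153 to 145 bases before the start and the STAT motif TTCCCGGAA at 42 to 34 bases before it. In Acod1 the single match was GGAAATTCC at 85 to 77 bases before the start. The Tnfaip3 promoter held the AP-1 motif TGACTCA at 136 to 130 bases, a kappa B match GGGACACCCC at 125 to 116 bases, GGAATTTCC (the symmetric form read on the other strand) at 24 to 16 bases and a kappa B match at 12 to 3 bases, printed above as GGAAATCCCC and matching on the opposite strand. No 2 of these matches overlapped. Over all 32851 promoters of the table the kappa B consensus was present in 4.51%, GGAAATTCC in 0.317%, the STAT motif in 8.3% and the AP-1 motif in 7.81%. Among the 10 promoters of these genes the counts were 1, 3, 1 and 1. The form GGAAATTCC was added after these same promoters had been read, so nothing is read from its count beside its share. The other 7 promoters held none of the 4 motifs, which says only that those letters are not in these windows. By position, Clec4d and Clec4e lie next to each other on chromosome 6 with Clec4n on the far side of Clec4d, Birc3 lies next to Birc2 on chromosome 9, and Tnf lies between Ltb and Lta on chromosome 17.

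With CMP, 7 of the 10 genes had all 3 knockout arrays above all 3 knockout arrays without CMP, against 12.2% of the 10583 genes tested, and 7 of 10 had all 3 control arrays above all 3 without CMP, against 12.6%. The 6 genes that did so in both genotypes were Icam1, Birc3, Clec4e, Traf1, Cd83 and Acod1. Clec4d did so in the knockouts and Tnf in the controls, while Il1b and Tnfaip3 overlapped in both genotypes. These genes were chosen for this difference, so nothing is read from the counts. The sizes below are log2 differences of signal plus a constant of 32, with CMP minus without, with their standard errors (SE). Their median over the 10 genes was 2.03 in knockouts and 1.59 in controls, beside -0.06 and -0.02 over all genes tested.

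**Figure D1:**
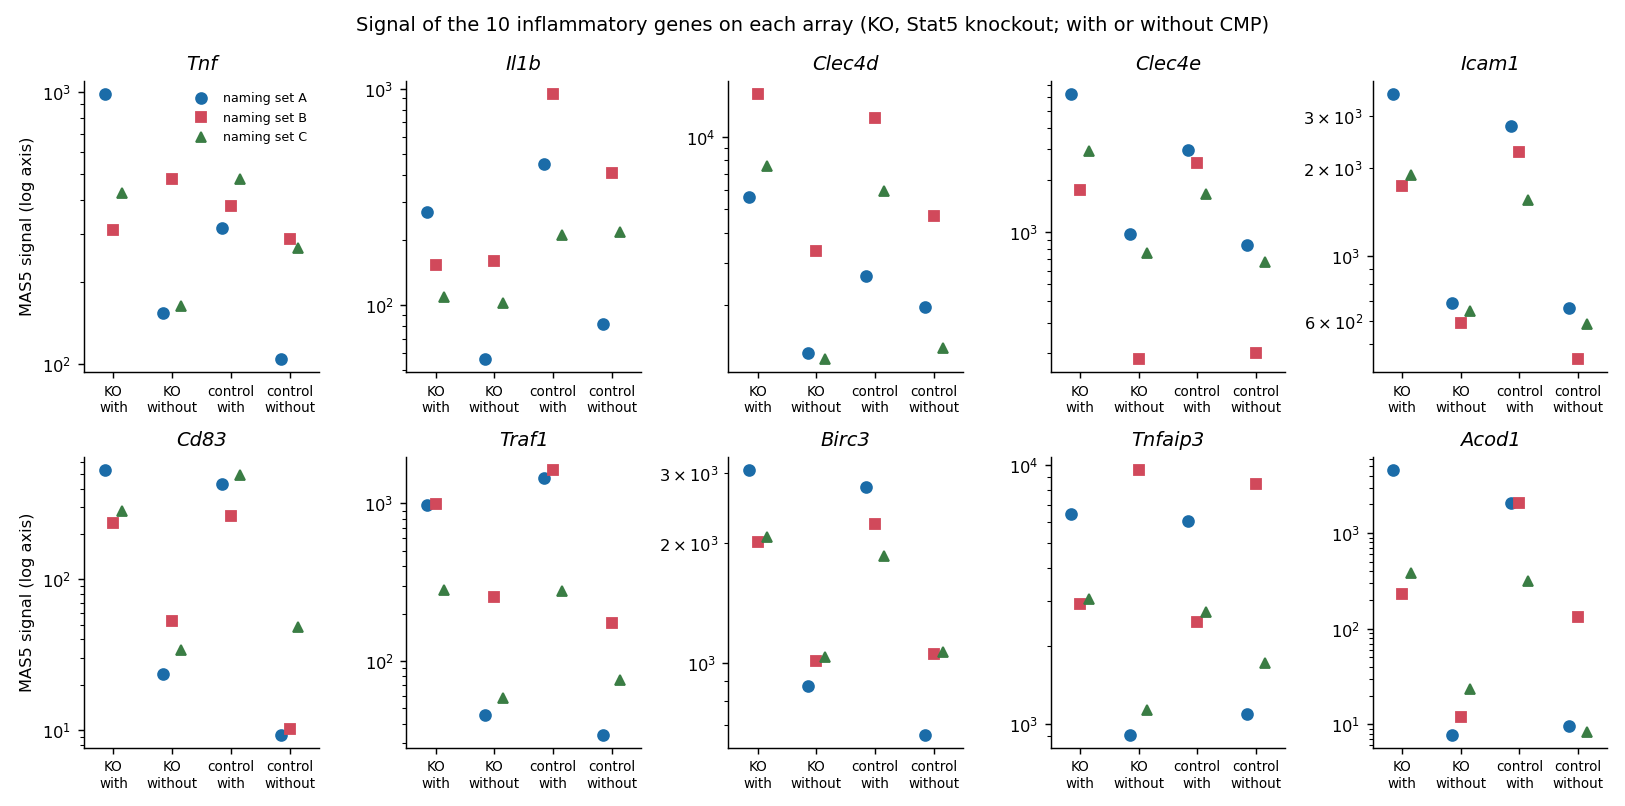
Each panel plots the MAS5 signal of 1 gene (log axis, a different range in each panel) on the 12 arrays: knockout with CMP, knockout without CMP, control with CMP and control without CMP, with 1 point per array and the naming set given by colour and shape. Acod1, Cd83, Traf1, Icam1, Birc3 and Clec4e separate by CMP in both genotypes, and the set B arrays without CMP hold the highest 2 Tnfaip3 signals, 9559.9 and 8409.

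The cytokines differed between naming sets. Tnf, the cytokine that starts much of the inflammatory cascade, gave 979.8, 311 and 425 in knockouts with CMP (sets A, B and C), against 153, 477 and 163 in knockouts without CMP. In controls it gave 315, 381 and 479 with CMP and 104, 287 and 267 without CMP. The control groups were separate, and the knockout groups overlapped, with set B running the other way. The Tnf difference was 1.04 ± 0.49 (SE) in knockouts and 0.83 ± 0.49 in controls.

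Il1b, which encodes the precursor of interleukin-1 beta, gave 269.8, 154 and 109 in knockouts with CMP, against 56.4, 159.8 and 102 in knockouts without CMP. Controls gave 449.8, 941 and 210.2 with CMP, against 81.7, 406 and 217 without CMP. Both pairs of groups overlapped, and the array with CMP was the higher one in 4 of 6 pairs. Its difference was 0.60 ± 0.46 in knockouts and 1.06 ± 0.46 in controls, carried in knockouts by set A (1.77, against -0.05 in set B and 0.07 in set C).

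The surface proteins stood higher with CMP in each of their pairs of arrays. Clec4e, the receptor also called Mincle that recognises glycolipids of mycobacteria and products of dead cells, gave 6229, 1751 and 2945 in knockouts with CMP, against 974, 186 and 761 in knockouts without CMP. In controls the Clec4e signals were 2988, 2514 and 1658 with CMP and 839, 201 and 674 without CMP. No array without CMP reached any array with CMP of either genotype. The difference was 2.53 ± 0.38 in knockouts and 2.17 ± 0.38 in controls, and a second probe set stood at 1465, 495 and 658 against 309, 134 and 180.1 in knockouts and at 699, 551 and 409 against 213, 229.7 and 125 in controls.

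Clec4d, a neighbouring lectin that pairs with Clec4e at the cell surface, gave 5609.7, 14996 and 7588 in knockouts with CMP, against 1266, 3367 and 1203 in knockouts without CMP. Controls with CMP gave 2653, 11997 and 5968, against 1971, 4703 and 1332 without CMP. In controls the set A array with CMP lay below the set B array without CMP, so those groups overlapped. The Clec4d difference was 2.30 ± 0.26 in knockouts and 1.30 ± 0.26 in controls.

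Icam1, the endothelial and leukocyte ligand of the beta-2 integrins, gave 3568, 1729 and 1887 in knockouts with CMP, against 693, 589.9 and 649.8 in knockouts without CMP. The control arrays gave 2789, 2262 and 1548 with CMP and 664, 446 and 588 without CMP. Neither pair of groups overlapped, and the differences were 1.77 ± 0.23 in knockouts and 1.88 ± 0.23 in controls. Cd83, a surface protein of mature dendritic cells and activated myeloid and lymphoid cells, gave 531, 235 and 283 in knockouts with CMP, against 23.6, 52.8 and 33.8 in knockouts without CMP. It gave 431, 263 and 492 in controls with CMP, against 9.36, 10.1 and 48.4 without CMP. All arrays without CMP were dim for Cd83, and both group means without CMP lay under the level minimum of 6.76 (log2) used to choose genes for testing. Its differences were 2.42 ± 0.36 in knockouts and 3.0 ± 0.36 in controls.

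Among the signalling proteins, Traf1, an adaptor of TNF receptor family members, gave 971, 996 and 284 in knockouts with CMP, against 45.5, 255 and 57.9 in knockouts without CMP. Controls gave 1439.9, 1631 and 279 with CMP, against 34.1, 175 and 75.5 without CMP. On the probe set used in the fit, set C had the lowest Traf1 signals with CMP in both genotypes. The difference was 2.45 ± 0.48 in knockouts and 3.0 ± 0.48 in controls. A second Traf1 probe set gave 767, 234 and 246 in knockouts with CMP, with set B the lowest. In controls with CMP it gave 1221, 524 and 208. Without CMP it stayed at or under 13.8 in knockouts and 8.17 in controls. Its differences were 3.35 ± 0.46 in knockouts and 3.92 ± 0.46 in controls.

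Birc3, a ubiquitin ligase of the inhibitor of apoptosis family that acts in the TNF receptor complex, gave 3055, 2009 and 2074 in knockouts with CMP, against 872, 1013 and 1034 in knockouts without CMP. In controls it gave 2761, 2232 and 1855 with CMP and 661, 1054 and 1064 without CMP. It had the least spread within groups of the 10 genes, a mean SD of 0.28 (log2, 4 groups of 3). Its differences were 1.24 ± 0.25 in knockouts and 1.28 ± 0.25 in controls. A second, dimmer Birc3 probe set did not follow in knockouts, with 152, 133 and 84.9 against 56.3, 189 and 105 (0.14 ± 0.31). In controls it was higher with CMP in each set, with 124, 259 and 193 against 58.3, 156 and 55.6 (0.93 ± 0.31).

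Tnfaip3, the ubiquitin-editing enzyme A20 that limits NF-kB signalling, gave 6473, 2906 and 3051 in knockouts with CMP, against 913, 9559.9 and 1131 in knockouts without CMP. Controls gave 6063, 2475 and 2709 with CMP, against 1099.7, 8409 and 1730.3 without CMP. In sets A and C the arrays with CMP were the higher ones, and in set B both arrays without CMP were the brightest Tnfaip3 arrays of all. The Tnfaip3 difference in knockouts was 2.78 (set A), -1.71 (set B) and 1.41 (set C), and the controls gave 2.43, -1.75 and 0.64. Over the 3 sets it was 0.83 ± 0.76 in knockouts and 0.44 ± 0.76 in controls. Without set B it was 2.09 in knockouts and 1.53 in controls. With that beta-actin ratio entered as a covariate, an alternative chosen after seeing the data, the Tnfaip3 difference was -0.14 in knockouts and -0.45 in controls. A second Tnfaip3 probe set lay under the level minimum, and its set B arrays without CMP were not its brightest. It gave 64.4, 6.38 and 61.0 against 39.1, 10.6 and 21.7 in knockouts. In controls it gave 75.6, 71.7 and 48.8 against 29.9, 55.3 and 43.4.

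Acod1 (also called Irg1), the enzyme that makes itaconate, had the highest difference of the 10. It gave 4588, 233 and 382 in knockouts with CMP, against 7.82, 11.9 and 23.6 in knockouts without CMP, and 2072, 2093 and 317 in controls with CMP, against 9.66, 132 and 8.36 without CMP. The lowest array with CMP was above the highest without CMP in either genotype. Its difference was 4.11 ± 0.88 in knockouts and 4.15 ± 0.88 in controls, and both group means without CMP lay under the level minimum. For genes this dim without CMP the size depends on the added constant: with constants of 100 and 1 the Acod1 difference was 2.99 and 5.72 in knockouts and 3.16 and 5.55 in controls, and that of Cd83 was 1.67 and 3.20 in knockouts and 2.00 and 4.42 in controls.

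**Figure D2:**
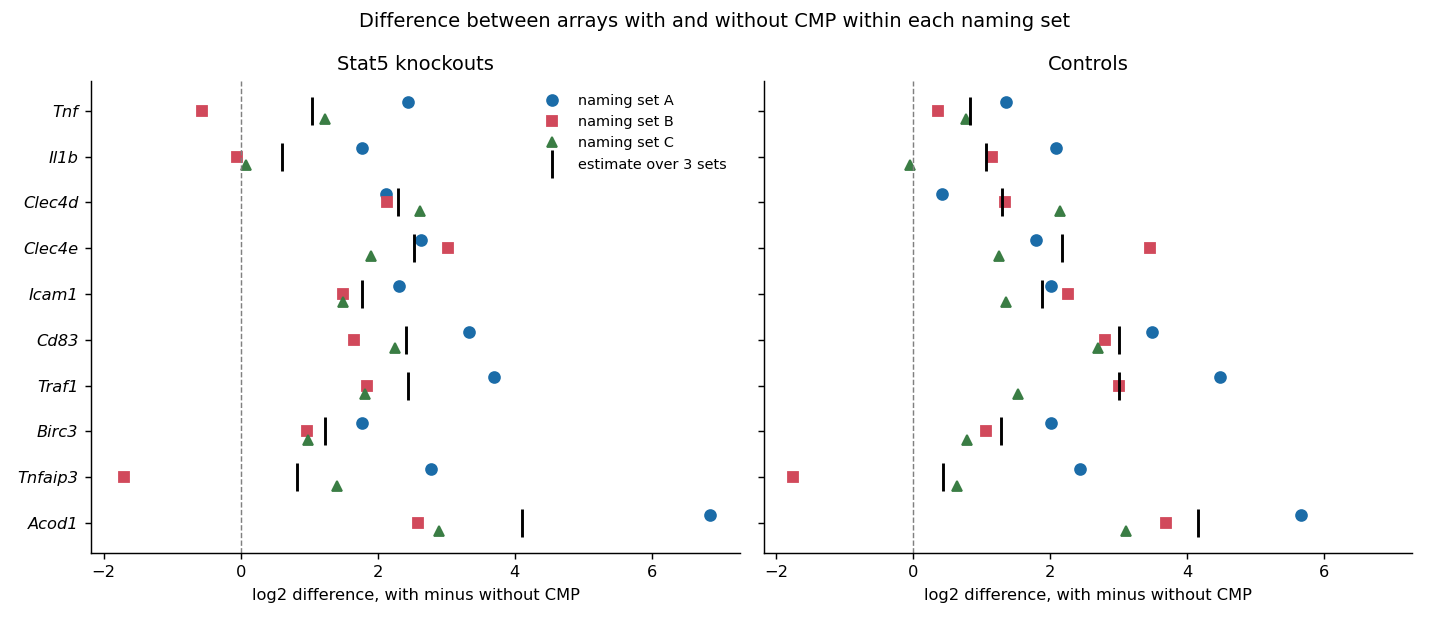
Log2 difference of signal plus 32, with CMP minus without CMP, for each of the 10 genes within naming sets A, B and C (points) and as the estimate over the 3 sets (black bar), in Stat5 knockouts (left) and controls (right). Set A gave the highest difference for Acod1 (6.86 and 5.66), and set B gave differences under 0 for Tnfaip3 in both genotypes (-1.71 and -1.75).

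The median CMP difference of the 10 genes in knockouts was 2.54 for set A, 1.58 for set B and 1.65 for set C. In controls it was 2.05, 1.80 and 1.30. Over the 6 pairs of arrays, 7 of the 10 genes stood higher with CMP in every pair, against 16.6% of all genes tested, Tnf did so in 5, and Il1b and Tnfaip3 in 4. Leaving out set B, which stood apart in its beta-actin ratio, gave medians of 2.18 in knockouts and 1.53 in controls. Clec4e in controls then had a difference of 1.53, against 2.17 with all 3 sets, and Tnf in knockouts 1.84, against 1.04. The mean SD within groups was 0.34 for Icam1, 0.46 for Cd83, 0.65 for Tnf, 0.77 for Il1b, 0.89 for Clec4d and for Clec4e, 1.05 for Traf1, 1.18 for Tnfaip3 and 1.28 for Acod1. The part of the beta-actin ratio, which moved with CMP in every pair, was tested only as the covariate: the median over the 10 genes was then 1.48 in knockouts and 1.76 in controls.

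For Stat5 knockout against control, by limma, with Benjamini-Hochberg adjustment over 10583 genes, 0 of the 10 genes passed an adjusted p of 0.05 with CMP and 0 without CMP, where 0.0189% of all genes (2) passed in each. At an unadjusted p under 0.05 there were 2 of the 10 with CMP, Il1b and Clec4d, against 9.81% of all genes, and 0 without CMP, against 2.36%. No gene of the 10 had separate knockout and control groups with CMP (5.66% of all genes) or without CMP (4.32%). The median knockout difference was 0.07 with CMP and 0.10 without CMP, beside -0.04 and -0.01 over all genes.

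Il1b was lower in the knockout in each of the 6 pairs of arrays, against 5.57% of all genes lower in 6 of 6, and none of the 10 was higher in 6 of 6 (3.91%). With CMP the knockout arrays gave 269.8, 154 and 109 and the control arrays 449.8, 941 and 210.2, a difference of -1.28 ± 0.46 (SE; 95% interval -2.29 to -0.27; unadjusted p = 0.0169, adjusted p = 0.507 by limma). Without CMP the difference was -0.82 ± 0.46 (unadjusted p = 0.102, adjusted p = 1.0 by limma). It was widest in set B, -2.39 with CMP and -1.19 without. Neutrophils are a source of Il1b, and their markers moved in the same set. The summed signal of 10 neutrophil markers in set B was 25177 in the knockout with CMP and 161663 in the control with CMP, and 94858 in the knockout without CMP and 147560 in the control without CMP. S100a8, a calcium-binding protein abundant in neutrophils, gave 12024 in the knockout and 55421 in the control there with CMP. In set A the neutrophil sums were 10742 in the knockout and 9925 in the control with CMP, and in set C 34828 in the knockout and 33551 in the control with CMP, while Il1b was lower in the knockout by -0.68 and -0.78 on the log2 scale. Over the 6 pairs the neutrophil sum was lower in the knockout in 3. The part of neutrophil RNA in the Il1b difference was not tested.

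Clec4d ran in opposite directions with and without CMP. With CMP its knockout difference was 0.58 ± 0.26 (SE; unadjusted p = 0.0452, adjusted p = 0.507 by limma), with values of 1.07, 0.32 and 0.34 by set. Without CMP it was -0.42 ± 0.26 (adjusted p = 1.0 by limma), with values of -0.63, -0.48 and -0.14 by set. The test of the difference between them also compares the difference between plus and minus arrays in knockouts with that in controls. It gave 1.0 ± 0.37 (SE, 95% interval 0.20 to 1.79, unadjusted p = 0.0188, adjusted p = 0.954 by limma), so it did not pass over all genes. The macrophage marker sum was higher in the knockout in 6 of 6 pairs, without CMP as well as with it. Csf1r weighed heavily in that sum, with 10427 of 19795 on the set A knockout array with CMP. Its genes did not all go the same way. With CMP, Adgre1 (-0.57 ± 0.28) and Cd14 (-0.33 ± 0.39) were lower in the knockout. Csf1r (0.85 ± 0.29), Mpeg1 (0.85 ± 0.34), Cd68 (0.43 ± 0.35) and Ccr2 (0.25 ± 0.35) were higher. The part of macrophage RNA in the Clec4d values was not tested.

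**Figure D3:**
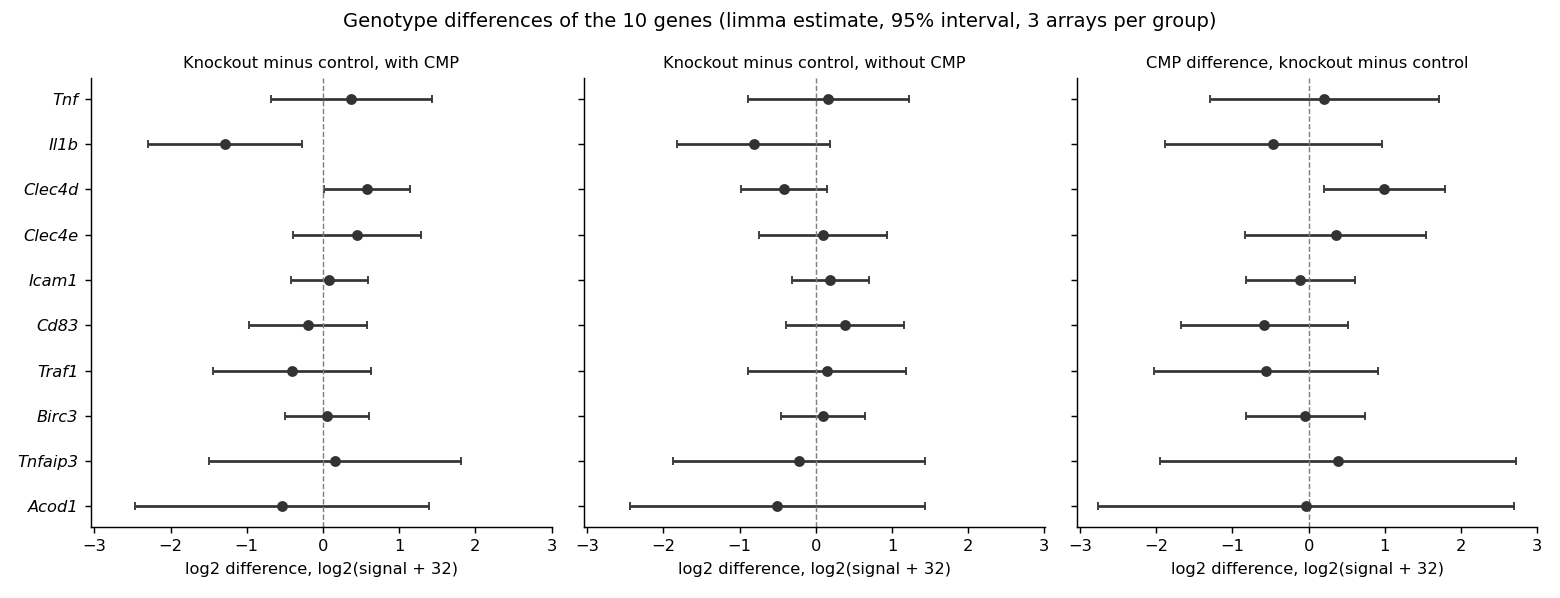
Estimated log2 differences (points) with 95% intervals (bars) for the 10 genes: knockout minus control with CMP, knockout minus control without CMP, and the CMP difference in knockouts minus that in controls, 3 arrays per group. Il1b lies at -1.28 with CMP and -0.82 without CMP, Clec4d at 0.58 and -0.42, and the intervals of Tnfaip3 and Acod1 are the widest.

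For the other 8 genes the intervals bound what these arrays could show. Icam1 differed between knockout and control by 0.08 with CMP (95% interval -0.42 to 0.59) and Birc3 by 0.05 (-0.50 to 0.60). Acod1, at -0.54 with CMP (95% interval -2.47 to 1.39), ran by set at 1.13, -3.0 and 0.25, and Tnfaip3 at 0.16 had an interval of -1.49 to 1.82, so even large differences between the genotypes were not detectable for these genes. Clec4e stood at 0.45 ± 0.38, Tnf at 0.37 ± 0.49, Cd83 at -0.20 ± 0.36 and Traf1 at -0.41 ± 0.48 with CMP, with adjusted p between 0.622 for Clec4e and 0.823 for Cd83 by limma. Without CMP, 6 of these 8 genes lay between -0.23 for Tnfaip3 and 0.19 for Icam1. The values of Acod1 (-0.50) and Cd83 (0.38) without CMP compare groups that both lay under the level minimum, so they are differences of near-background signals and nothing is read from them, nor from these 2 genes in the comparison of CMP differences. In the comparison of CMP differences between genotypes 0 of the 10 genes passed by limma, as did 0% of all genes, and 1 had an unadjusted p under 0.05 (Clec4d), against 2.11% of all genes.

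The neighbours of these genes in the same pathways were taken as 9 lists of 149 genes, 115 of which could be tested. With CMP in knockouts, 23 of the 115 rose and 8 fell by limma at an adjusted p of 0.05 (20% and 6.96%), against 9.03% and 9.72% of all genes. In controls 26 rose and 8 fell (22.6% and 6.96%), against 10.6% and 11.6% of all genes. The median difference over the 115 was 0.23 in knockouts and 0.36 in controls. Between knockout and control 0 of the 115 passed by limma with CMP and 0 without CMP, against 0.0189% of all genes in each. At an unadjusted p under 0.05 there were 12 with CMP and 2 without, against 9.81% and 2.36% of all genes. The beta-actin ratio moved with CMP, and with it as a covariate 6 rose and 3 fell in knockouts and 11 rose and 7 fell in controls. Over all 10583 genes 344 rose and 306 fell in knockouts with that covariate, and 717 rose and 802 fell in controls. Without set B 31 rose and 10 fell of 110 in knockouts and 28 rose and 16 fell in controls. Over all genes 1253 rose and 1382 fell in knockouts without that set, and 1358 rose and 1704 fell in controls. Single arrays moved these counts: 13 passed in knockouts without the set C array without CMP, and 19 passed in controls without the set B array with CMP.

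The counts of single lists, here and below, stand beside the same shares of all genes. These were 9.03% risen and 9.72% fallen in knockouts, and 10.6% and 11.6% in controls. A count of 1 or 2 in such short lists is near these shares, and nothing is read from it. The lists were chosen with earlier results of these data known. Of 10 NF-kB subunits and inhibitors, 2 rose and 0 fell with CMP in either genotype. They were Relb, the subunit of the alternative NF-kB pathway (2.54 ± 0.61 in knockouts, adjusted p = 0.0156, and 3.30 ± 0.61 in controls, adjusted p = 0.00348, limma), and Bcl3, a nuclear partner of NF-kB (2.06 ± 0.43 in knockouts and 1.83 ± 0.43 in controls). Among 24 proteins of TNF receptor signalling, which work beside Traf1, Birc3 and Tnfaip3, 5 rose and 1 fell in knockouts and 4 rose and 0 fell in controls. Map3k8, a kinase that carries the signal to the ERK pathway, rose by 2.39 ± 0.31 in knockouts (adjusted p = 0.000606) and by 2.68 ± 0.31 in controls (adjusted p = 0.000256, limma). The TNF receptor gene Tnfrsf1b rose by 1.32 ± 0.27 in knockouts and 1.36 ± 0.27 in controls, and Tnip1, a binding partner of Tnfaip3, rose by 1.19 ± 0.30 in knockouts and 1.01 ± 0.30 in controls. Birc2, the close relative and chromosomal neighbour of Birc3, did not pass, with 0.36 ± 0.19 in knockouts and 0.27 ± 0.19 in controls (adjusted p = 0.198 and 0.337, limma).

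Cytokines and chemokines beside Tnf and Il1b showed 3 of 14 risen and 0 fallen in knockouts and 5 risen and 0 fallen in controls. Cxcl3, a neutrophil-attracting chemokine, rose by 1.80 ± 0.39 in knockouts and 2.51 ± 0.39 in controls, and Ccl5, which attracts T cells and monocytes, rose by 3.5 ± 0.92 in knockouts and 3.73 ± 0.92 in controls. Ltb, the gene beside Tnf, rose by 1.90 ± 0.45 in controls and stood at 1.11 ± 0.45 in knockouts (adjusted p = 0.105, limma). Csf1, which encodes macrophage colony stimulating factor, rose by 2.14 ± 0.51 in controls and stood at 1.45 ± 0.51 in knockouts (adjusted p = 0.0682, limma).

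In interleukin-1 processing and reception 2 of 12 rose and 1 fell in knockouts and 2 rose and 0 fell in controls. Nlrp3, the sensor of the inflammasome that matures Il1b, rose by 1.10 ± 0.31 in knockouts and 0.93 ± 0.31 in controls, and Casp4 (caspase-11 of the mouse) rose by 1.54 ± 0.38 in knockouts and stood at 1.01 ± 0.38 in controls (adjusted p = 0.0781, limma). Gsdmd, the pore protein through which interleukin-1 beta leaves the cell, fell in knockouts (-0.95 ± 0.27) and stood at -0.46 ± 0.27 in controls (adjusted p = 0.241, limma). Of 10 Toll-like receptors and co-receptors 4 rose and 0 fell in each genotype. Cd14, the co-receptor for lipopolysaccharide, rose by 1.85 ± 0.39 in knockouts and 2.03 ± 0.39 in controls, and Tlr4 rose by 1.24 ± 0.37 in knockouts and 1.25 ± 0.37 in controls. Tlr2 rose by 1.57 ± 0.35 in knockouts and stood at 0.80 ± 0.35 in controls (adjusted p = 0.119, limma). Cd14 is also one of the macrophage markers.

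The lectin receptors beside Clec4d and Clec4e, with the Syk route they signal through, had 4 of 11 risen and 0 fallen in knockouts and 3 risen and 0 fallen in controls. Clec4n (dectin-2), the neighbour of Clec4d, rose by 2.01 ± 0.57 in knockouts and 3.11 ± 0.57 in controls. The receptor of fungal beta-glucan, Clec7a, rose by 1.87 ± 0.44 in knockouts and 1.72 ± 0.44 in controls, and Malt1, a protease between Syk and NF-kB, rose by 0.71 ± 0.21 in knockouts and 1.68 ± 0.21 in controls. Integrins and adhesion molecules beside Icam1 went both ways, 1 of 10 up and 1 down in knockouts and 1 up and 3 down in controls. Icam2, a relative of Icam1 that binds the same integrin, fell in knockouts (-1.33 ± 0.20) and in controls (-1.34 ± 0.20), while Cd44 rose by 0.93 ± 0.20 in knockouts and 0.89 ± 0.20 in controls.

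Of 11 effector enzymes and proteins of activated myeloid cells 2 rose and 0 fell in knockouts and 5 rose and 0 fell in controls. Saa3, an acute phase protein, rose by 2.52 ± 0.49 in knockouts and 2.18 ± 0.49 in controls, and Ptgs2, the inducible prostaglandin synthase, rose by 1.40 ± 0.34 in knockouts and 1.19 ± 0.34 in controls. Hmox1, which degrades heme, rose by 2.55 ± 0.48 in controls and stood at 1.48 ± 0.48 in knockouts (adjusted p = 0.0509, limma). The 13 tricarboxylic acid cycle genes around the step that feeds Acod1 had 0 risen and 5 fallen in each genotype. Idh2, the mitochondrial isocitrate dehydrogenase, fell in knockouts (-1.66 ± 0.19, adjusted p = 0.00028) and in controls (-1.60 ± 0.19, adjusted p = 0.000299, limma). Sdhd, a subunit of succinate dehydrogenase, the enzyme that itaconate inhibits, fell in knockouts (-0.91 ± 0.22) and in controls (-0.68 ± 0.22). Sdha, its flavoprotein subunit, fell in controls (-0.71 ± 0.16) and stood at -0.39 ± 0.16 in knockouts (adjusted p = 0.112, limma). In the test of whether the CMP difference differed between genotypes, 0 of the 115 pathway genes passed by limma, as did 0% of all genes. At an unadjusted p under 0.05 there were 2, against 2.11% of all genes.

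**Figure D4:**
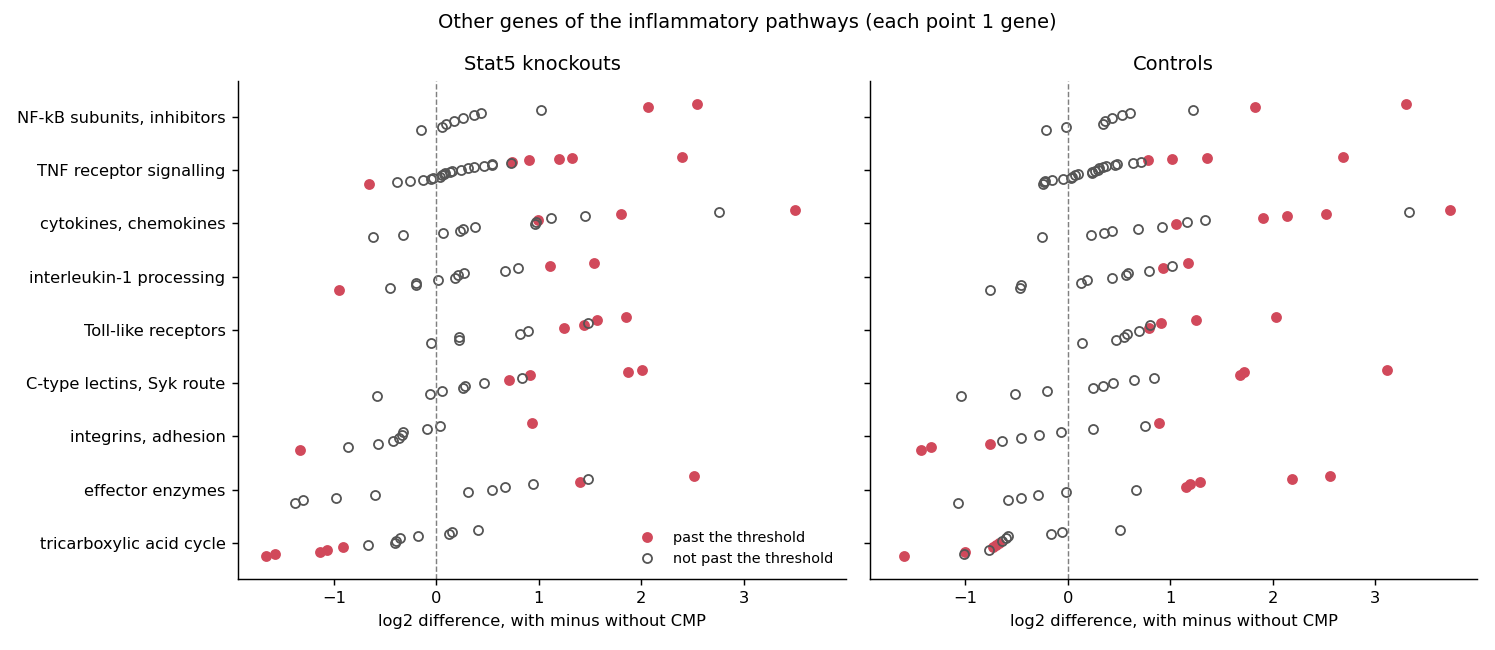
Each point is 1 of the 115 tested pathway genes, placed by its log2 difference with CMP minus without CMP in Stat5 knockouts (left) and controls (right) and grouped by list, filled where the limma test passed. The highest filled point of the Toll-like receptor row is Cd14 (1.85 and 2.03), and the filled points of the tricarboxylic acid cycle row all lie under 0.

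Across the 12 arrays, with naming set means removed, most of the 10 genes followed each other. The correlation of a gene with the mean of the other 9 was 0.98 for Birc3, 0.96 for Acod1 and for Traf1, 0.95 for Cd83 and for Icam1, 0.84 for Clec4e, 0.78 for Clec4d and for Tnf, 0.60 for Il1b and 0.48 for Tnfaip3. These values share the arrays, their scaling and the CMP difference by which the genes were chosen. The 5 other genes whose values were most like the mean of the 10 were Gadd45b (0.99), Scarb2 (0.99), Niban1 (0.98), P2rx3 (0.98) and Rras (0.98). Gadd45b, a stress-inducible gene, stood 2.00 higher with CMP in knockouts and 2.06 higher in controls on the log2 scale. Scarb2, a lysosomal membrane protein, moved with the same pattern over a smaller span, 0.48 in knockouts and 0.45 in controls.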

How the data were processed

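Affymetrix arrays with 45101 probe sets measured RNA of 12 samples. Per the submitters' processing notes the authors used MAS5, and the deposited values are its signal intensity per probe set on a linear scale, each array scaled to a trimmed mean of 500.0 (2% cut at each end). Array medians ran from 59.7 to 113.6. Precision is limited by having 3 arrays per group. The array annotation gave 34958 probe sets 1 symbol, 932 several and 9211 none, and 34754 pairings were matched by gene number to genes of GRCm38.p6.

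The 1 probe set per gene with the highest mean was used as log2(signal + 32). The 10583 genes at or above the median level of all probe sets (6.76) were fitted with limma 3.58.1 in R 4.3.3 (lmFit, eBayes with trend), with 4 groups and the naming set as a block. The block follows the title forms, whose arrays deviated together in every one of the 18 pairs. Contrasts used Benjamini-Hochberg adjustment and a threshold of 0.05, on 6 residual and 5.78 prior degrees of freedom. The code was tested on simulated data. For knockout with CMP, 31 of 100 genes changed 2-fold and 94 of 100 changed 4-fold passed there. For the comparison of CMP differences 12 and 67 of 100 passed, so most 2-fold differences would be missed. All members were named, with the 5 genes most like the members' mean. The pathway genes named, apart from Birc2, were among the 3 of smallest p in their list for CMP in knockouts or in controls. Others of that rank were left out, such as Tlr13 (1.44 ± 0.26 in knockouts) and Irak2 (1.17 ± 0.30 in controls). No pathway gene was named for the genotype comparisons. Birc2 was named for its position. The members, lists, motifs and tests were chosen with earlier results of these data known. Alternatives covered scaling, constant, level minimum, probe set rule, block, weights, samples and the beta-actin covariate.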

Additional observations from a re-analysis of the deposited data

Results flagged for a closer look

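Clec4d was singled out because its knockout minus control difference had one direction in every naming set with CMP (mean log2 difference 0.58) and the other in every naming set without CMP (mean log2 difference -0.42). The difference between them was tested and did not pass over all genes (1.0 ± 0.37, SE; adjusted p = 0.954 by limma). Over 29 alternatives it stayed between 0.64 and 1.28, with adjusted p between 0.740 and 1.0.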

How the results depend on the processing

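No member passed in the 3 genotype comparisons under any alternative (30, 30 and 29 of them). Il1b was lower in the knockout in 30 of 30 with CMP (-1.85 to -0.37, adjusted p 0.314 to 1.0 by limma) and in 30 of 30 without CMP (-1.33 to -0.52, 0.643 to 1.0). The CMP difference of the other 9 members kept its direction in every alternative run. Tnfaip3 reversed: in knockouts it was -0.15 without set A and -0.14 with the beta-actin covariate, and in controls -0.56 without set A and -0.45 with that covariate. Leaving out 1 array gave -0.24 to 1.25 in controls, under 0 without the set A control array with CMP (-0.24) or without CMP (-0.21). With the level minimum 1 log2 unit higher Cd83 was not tested. The cause of these changes was not tested.

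Counts of genes passing by limma for knockout against control with CMP, 2 in the reported fit, were 4 with a constant of 100, 4 with the naming set as a random block, 13 with array weights, and 0 with the array of conflicting labels as a control or with the groups fitted alone. Without CMP, also 2, the count was 0 with that array as a control. For CMP in knockouts (1985 reported) they were 298 with no replicate block, 4008 with array weights, 999 without the array of conflicting labels, 972 with it as a control, 682 and 345 without sets A and C, 662 with the groups alone, 650 with the beta-actin covariate and 3044 for every probe set. For CMP in controls (2344) they were 470 with no replicate block, 4151 with array weights, 1067 and 570 without sets A and C, 1519 with the covariate and 4105 for every probe set.

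Of the pathway genes, 1 passed with array weights for knockout with CMP (0 reported). For CMP in knockouts (31) the counts were 3 with no replicate block, 68 with array weights, 16 without the array of conflicting labels, 15 with it as a control, 10 and 7 without sets A and C, 15 with the groups alone and 9 with the covariate. For CMP in controls (34) they were 8 with no replicate block, 57 with array weights, 18 and 11 without sets A and C and 18 with the covariate.

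Leaving out 1 array at a time gave 2 to 3 genes for knockout with CMP, 2 to 2 without CMP, 0 to 0 for the comparison of CMP differences, 939 to 2365 for CMP in knockouts and 1288 to 3439 in controls, with 0 to 0 members in the genotype comparisons and pathway counts of 13 to 40 in knockouts and 19 to 47 in controls. In knockouts the arrays without CMP of sets A, B and C each moved the count by over 1.5 times (1291, 999 and 939 without them), and in controls those without CMP of sets B and C (1291 and 1288) and with CMP of sets B and C (1494 and 1488) did. The pathway counts were 16 and 13 without the knockout arrays without CMP of sets B and C. In controls they were 21 without the array without CMP of set A, 21 without that of set B, and 19 and 22 without the arrays with CMP of sets B and C.

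Centring arrays on their medians changed the share of passing genes that were higher with CMP to 37.5% in knockouts, against 48.2% as reported, and to 27.8% in controls, against 47.7%. It moved the median of all genes to -0.22 for CMP in controls (-0.02 reported) and to 0.15 for knockout with CMP (-0.04), and the members' median to 1.39 (1.59) and 0.26 (0.07). Apart from the counts, 1536 values of single members and medians kept their call or moved by less than the spread, 92 moved by more, and the 6 that reversed are the Tnfaip3 values above.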
